A study of Mus musculus with 20 samples.

Results

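The genes described here code for the proteasome, the protease complex that degrades proteins marked with ubiquitin, together with its activators and assembly factors. They were chosen by symbol: every gene on the array whose annotated symbol begins with Psma, Psmb, Psmc, Psmd, Psme or Psmg and a number, except Psmb11, the subunit of the thymic epithelium. Of 49 such genes, 43 had a brightest probe above a log2 intensity of 7.11 on at least 2 arrays, out of 12704 genes that met the same limit in the whole series. The limit lies 3 SD above the background mode of 6.78. The other 6, Psma1, Psma3, Psma6, Psma8, Psmd3 and Psmg4, were not above the limit on any array, so they have no level here, the closest being Psma3 with a highest value of 7.03. Of the 43, Psmc6 passed on 9 arrays with a highest value of 7.22, and the remaining 42 were above the limit on all 20. Psmc3ip and Psme3ip1 match by symbol but code for proteins that bind a proteasome component. Without them the 41 remaining genes gave the same median differences between leukaemia and grafts.

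The core particle of the proteasome is a barrel of alpha rings, which gate the entrance, and beta rings, which hold the proteolytic sites. Psmb6, Psmb7 and Psmb5 code for the caspase-like, trypsin-like and chymotrypsin-like subunits of the constitutive form. Interferon-gamma and the haematopoietic lineage favour their replacement by Psmb9, Psmb10 and Psmb8, which together form the immunoproteasome and favour the cutting of peptides for MHC class I. A regulatory particle of ATPases (Psmc genes) and other subunits (most Psmd genes) binds, unfolds and feeds in ubiquitinated proteins, while Psme1, Psme2, Psme3 and Psme4 code for alternative caps.

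The series used 20 Illumina bead arrays of mouse RNA to set normal thymus beside thymus grafts with autonomous thymopoiesis and leukaemia of the T cell lineage (T cell acute lymphoblastic leukaemia, T-ALL). The 7 T-ALL arrays, the 3 arrays labelled T-ALL_Rag- (written T-ALL Rag- below) and the 4 arrays of thymus grafts at 10 weeks are from F1(WB x B6/Ly5.1) mice, and the labels mark all 10 leukaemia arrays as re-analyses of samples already shown in a figure. The 2 host splenocyte arrays are from WB mice, and the 2 arrays each of total wild-type thymocytes and splenocytes are from C57BL/6 mice. The strain therefore differs along with the group wherever grafts or host cells are set against wild type. The mark Rag- is not explained in the labels, RNA came from cell suspensions or sorted cells without saying which, and no label ties arrays to mice. The p-values therefore measure how these arrays spread, and that spread may be technical.

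Several arrays carried marker genes at odds with their labels. The mean of 7 T cell markers was 13.00 and 12.93 on the host spleen arrays, and the mean of 8 double-positive thymocyte markers was 12.31 and 12.10, as high as in the grafts (10.68 to 12.24). On wild-type thymus array 1 the T cell mean was 9.18 and the mean of 11 granulocyte markers was 13.68, against 12.39 and 9.84 on wild-type thymus array 3. Wild-type spleen array 3 had a double-positive mean of 11.14, against 9.08 on array 1. Erythroid markers, of which 7 were measured, averaged 7.57, 11.33, 12.15 and 7.6 on grafts 1 to 4. Graft 3 also had the highest mean of 14 cell cycle genes among the grafts (11.45, with the other grafts at 10.37 to 10.52). Labels are used below as given. Each level is a mixture, so fewer cells of a type and less RNA per cell cannot be told apart.

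The spans of proteasome genes over the arrays were set beside those of all genes tested, which were dimmer (median level 8.01, against 11.22). The median proteasome gene spanned 1.06 log2 units over the 20 arrays, against 1.22 for all genes tested. Of the proteasome genes 39.5% spanned less than 1 unit, against 38.8% of all genes. Spans of 2 or more units occurred for 4 of 43, against 2656 of all 12704 genes. The widest spans belonged to Psmb1 (4.21), Psmb8 (3.28), Psmg1 (2.51) and Psmb5 (2.04). Narrower spans included those of Psma2 in the alpha ring (13.67 to 14.28), Psmb4 in the beta ring (13.48 to 14.02) and the ATPase Psmc2 (12.52 to 13.20).

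**Figure D1:**
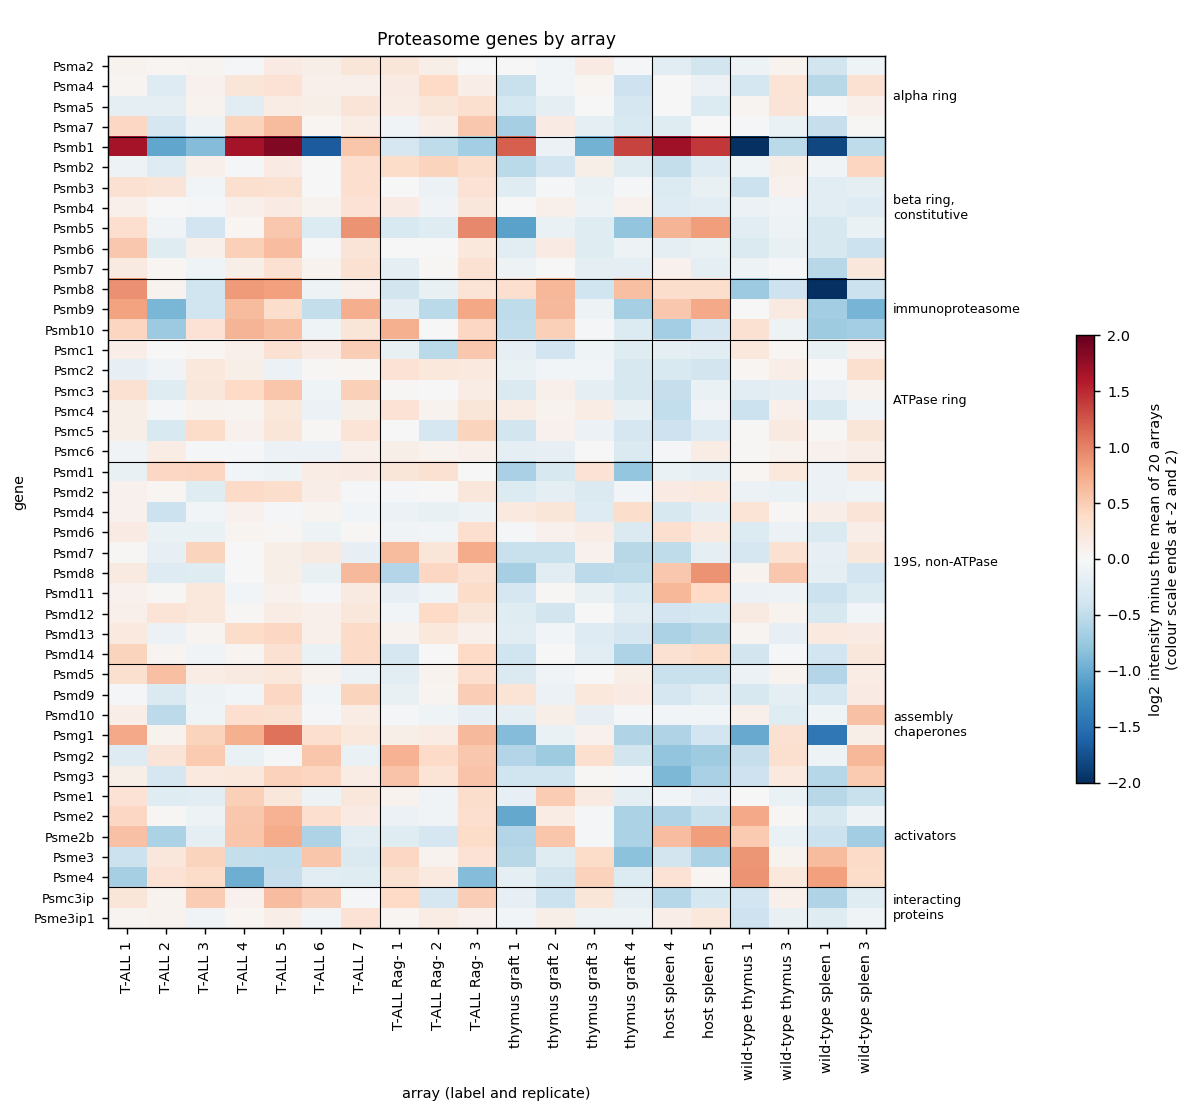
Log2 intensity of each of the 43 genes (rows, grouped by role) on each of the 20 arrays (columns, grouped by label), as the difference from the gene's mean over all arrays. Psmb1 and Psmb8 show the strongest colours.

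The first comparison asked how the leukaemia differs from the grafts. In T-ALL, 39 of 43 proteasome genes (90.7%) had a higher mean than in the grafts, with a median log2 difference of 0.285 (1.22-fold), against 52.3% and 0.011 over all genes tested. Those higher were 4 of 4 in the alpha ring, 6 of 7 constitutive genes in the beta ring, 3 of 3 of the immunoproteasome, 6 of 6 ATPases, 9 of 10 other subunits of the regulatory particle, 5 of 6 assembly chaperones, 4 of 5 activators and 2 of 2 interacting proteins. No single gene passed the test: 0 of 43 had an adjusted p below 0.05 in limma, against 0.323% of all genes. Before adjustment 18 were higher with a p below 0.05 and 0 were lower, against 971 higher and 1182 lower of all 12704 genes, and the smallest adjusted p was 0.0789, for Psmd13.

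Single genes differed by at most 0.90 in size. Psmg1, a chaperone that pairs with Psmg2 to build the alpha ring, stood out with the largest difference. Its level was 10.52 at the lowest, 10.90 at the median and 11.53 at the highest over the 7 T-ALL arrays, against 9.58, 10.31, 10.54 and 9.85 in grafts 1 to 4. The lowest T-ALL array reached the highest graft, so the groups touched, with a log2 difference of 0.90 (SE 0.30, limma adjusted p = 0.138). Psmb5, the chymotrypsin-like subunit, had a difference of 0.72 (SE 0.28, limma adjusted p = 0.193). Psme2, a subunit of the interferon-inducible cap, came next.

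Psme2 was 8.94 at the lowest, 9.39 at the median and 9.75 at the highest in T-ALL, against 8.02, 9.19, 9.03 and 8.41 in grafts 1 to 4. Grafts 2 and 3 lay within the T-ALL range and grafts 1 and 4 below it (difference 0.68, SE 0.23, limma adjusted p = 0.135). In the regulatory particle, 7 of the 10 non-ATPase subunits had an unadjusted p below 0.05. The lid subunit Psmd12 was 11.24 to 11.49 in T-ALL, against 10.85 to 11.20 in grafts, and the ATPase Psmc1 was 11.10 to 11.60 in T-ALL, against 10.72 to 11.02 in grafts. These were the 2 members whose T-ALL arrays all lay above every graft, a separation seen for 1.30% of all genes, and neither passed the test (limma adjusted p = 0.115 for Psmd12 and 0.232 for Psmc1).

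Psmd8 (0.52), Psmd1 (0.48), Psmd14 (0.45), Psmd7 (0.41), Psmd13 (0.41), Psmd2 (0.30) and Psmd11 (0.26) of the regulatory particle had log2 differences above 0.2. Psmd14 is the enzyme that removes ubiquitin from substrates, and Psmd1 and Psmd2 are the large scaffolds of the regulatory particle. Psmd6 (0.01) and the ubiquitin receptor Psmd4 (-0.18) were level or lower. Psmd4 was at 12.58 to 13.09, against 12.75 to 13.35 in grafts (SE 0.12, limma adjusted p = 0.479). The 4 members with a lower mean in T-ALL were Psmd4 (-0.18), Psme4 (-0.18), Psmd9 (-0.09) and Psmb1 (-0.06). These signs are those of the brightest probe. A second probe gave 0.41 for Psmd9 and -0.01 for Psmd11.

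The other members lay between these. In the core particle the log2 differences were 0.07 for Psma2, 0.31 for Psma4, 0.22 for Psma5 and 0.42 for Psma7, then 0.29 for Psmb2, 0.32 for Psmb3, 0.08 for Psmb4, 0.35 for Psmb6 and 0.26 for Psmb7. Among the ATPases they were 0.15 for Psmc2, 0.41 for Psmc3, 0.00 for Psmc4, 0.30 for Psmc5 and 0.14 for Psmc6. The assembly chaperones Psmd5, Psmd10, Psmg2 and Psmg3 had differences of 0.26, 0.10, 0.45 and 0.37, and Psmc3ip and Psme3ip1 of 0.42 and 0.10. None of these passed the test.

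The median stayed above 0 within each chip that holds both labels. Arrays whose titles share a barcode are called a chip. On the first, with grafts 1 and 2 and T-ALL arrays 1 to 3, 31 of 43 were higher in T-ALL with a median of 0.200, and on the second, with grafts 3 and 4 and T-ALL arrays 4 to 6, 40 were higher with a median of 0.338. Calls depended on graft 3: without it Psmd1 (0.70, adjusted p = 0.0097), Psmd12 (0.43, adjusted p = 0.0372) and Psmd13 (0.40, adjusted p = 0.0497) passed the limma test, 3 of 43, against 8.73% of all genes in that fit. Beside the proteasome, 13 of 14 cell cycle genes were higher in T-ALL than in grafts (median 0.59), with list means of 10.87 to 11.51 in T-ALL, against 10.37 to 11.45 in grafts. Erythroid genes were higher for 7 of 7 (median 1.24, list means 9.29 to 12.91 in T-ALL, against 7.57 to 12.15 in grafts), macrophage genes for 11 of 12 and granulocyte genes for 11 of 11. T cell markers were lower for 7 of 7 (median -0.31) and double-positive markers for 8 of 8 (median -0.89). In limma 0 genes of these lists passed, and their part in the proteasome difference was not tested.

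**Figure D2:**
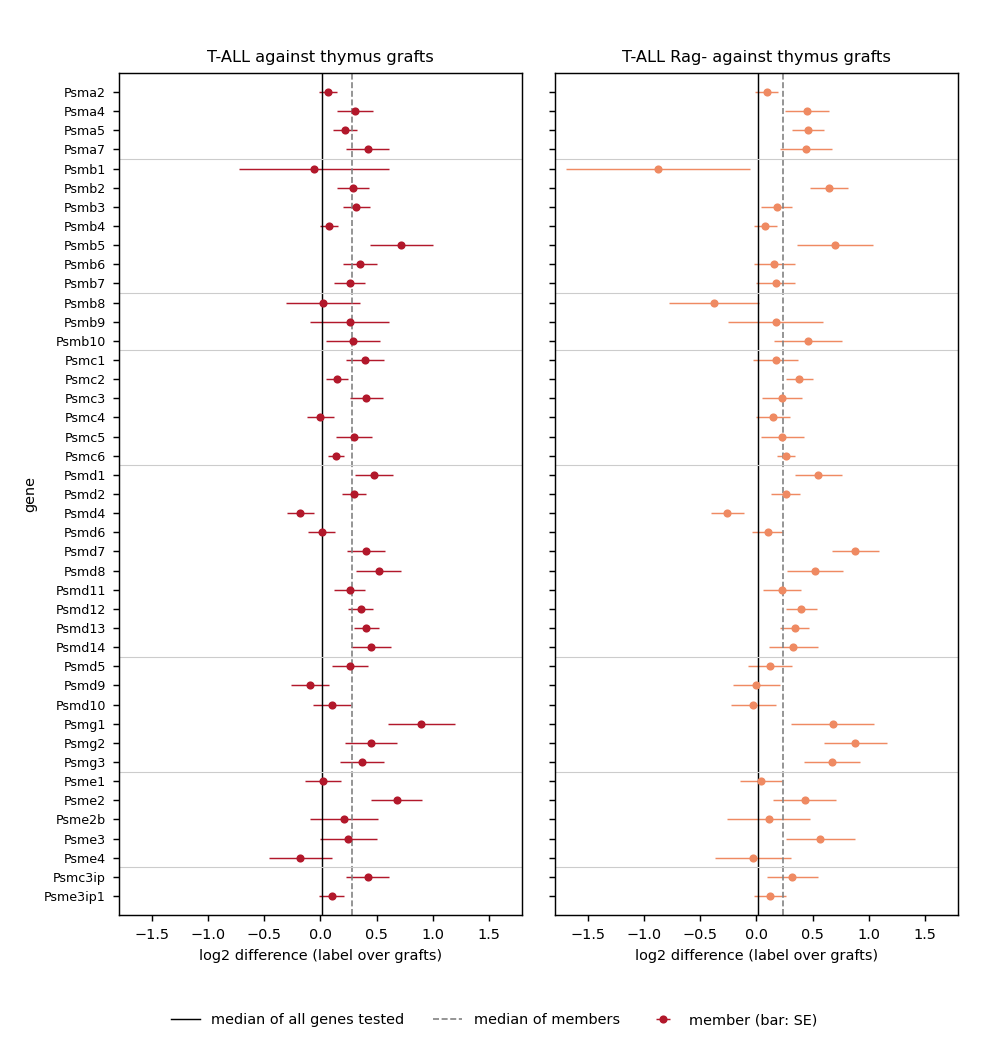
Log2 difference of each proteasome gene (points, with SE bars) in T-ALL against thymus grafts (left) and T-ALL Rag- against thymus grafts (right), with the median of the proteasome genes (dashed) and of all genes tested (solid). Medians are 0.285 and 0.234, and in the right panel Psmb1, at -0.88, is the point farthest to the left.

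The T-ALL Rag- label was set against the same 4 grafts, so this comparison shares its control arrays with the one above. All 3 T-ALL Rag- arrays are on a chip with T-ALL array 7 and no graft, so chip and label cannot be told apart here. Of 43 proteasome genes, 37 had a higher mean in T-ALL Rag- than in grafts, with a median log2 difference of 0.234, against 0.013 over all genes. In limma 0 of 43 passed an adjusted p of 0.05, against 0.0157% of all genes. With an unadjusted p below 0.05, 11 were higher and 0 lower, against 1030 and 1045 of all 12704 genes. All 3 T-ALL Rag- arrays lay above all 4 grafts for 11 of the 43, against 7.18% of all genes. These were Psma4, Psma5, Psmb2, Psmc2, Psmc6, Psmd2, Psmd7, Psmd13, Psmg1, Psmg2 and Psmg3. Psmc6 was below the limit of 7.11 on every graft (6.79 to 7.08) and at most 7.19 in T-ALL Rag-, so its place among the 11 sets values near background beside background.

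Psmd7, a scaffold that pairs with the deubiquitinase Psmd14, was 11.80, 11.41 and 11.91 in T-ALL Rag-, against 10.72, 10.73, 11.26 and 10.61 in grafts 1 to 4. The groups did not overlap (difference 0.88, SE 0.21, limma adjusted p = 0.119), but a second Psmd7 probe gave -0.15. Psmg2, the partner of Psmg1, was 11.10, 10.79 and 10.95 in T-ALL Rag-, against 9.82, 9.69, 10.73 and 10.04 in grafts. Graft 3 came closest to the T-ALL Rag- arrays in both genes (Psmg2 difference 0.88, SE 0.28, limma adjusted p = 0.161). Psmg2 has 3 probes, and on the others the groups overlapped, with a lowest difference of 0.29. Psmb2, a structural beta subunit, had a difference of 0.65 (SE 0.17, limma adjusted p = 0.122).

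Calls in this comparison depended on the fit. Without graft 3, 6 of 43 passed (Psma5, Psmb2, Psmc6, Psmd1, Psmd7 and Psmg2), against 8.84% of all genes. With chip as a random block 5 of 43 passed (Psma5, Psmb2, Psmc2, Psmc6 and Psmd7), against 4.76% of all genes, and the block correlation estimated for chip was -0.12. Psmc6, near background, is in both counts. The erythroid markers were higher in T-ALL Rag- than in grafts for 7 of 7 genes (median 2.87, list means 12.19 to 12.40 in T-ALL Rag-, against 7.57 to 12.15 in grafts), double-positive markers lower for 8 of 8 (median -1.73), and cell cycle genes higher for 14 of 14 (median 0.68). Their part in the proteasome values was not tested.

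Between the 2 leukaemia labels no proteasome gene passed the test. In T-ALL Rag- against T-ALL, 22 of 43 genes were higher and the median log2 difference was 0.00. In limma 0 of 43 passed, against 0% of all genes. Before adjustment 3 were higher and 0 lower, against 349 and 303 of all 12704 genes. The largest differences were -0.81 for Psmb1 (SE 0.74, limma adjusted p = 0.923), 0.47 for Psmd7 (SE 0.19, limma adjusted p = 0.901) and 0.43 for Psmg2 (SE 0.25, limma adjusted p = 0.901). The second Psmd7 probe gave -0.29. Psmb2, at 13.17 to 13.26 in T-ALL Rag- and 12.56 to 13.15 in T-ALL, had groups that did not overlap, 1 of 43 members against 2.03% of all genes. On a second Psmb2 probe they overlapped, at 12.74 to 13.17 in T-ALL Rag- and 12.56 to 12.96 in T-ALL. With chip as a fixed block the median was -0.073.

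The immunoproteasome genes were set beside their constitutive counterparts across the labels. Psmb8 and Psmb9 lie close together on chromosome 17 (GRCm38.p6, Psmb8 at chr17:34198195-34201454 on the plus strand, Psmb9 at chr17:34182030-34187330 on the minus strand) within the MHC region. Psmb10 lies on chromosome 8, Psmb5 on chromosome 14, Psmb6 on chromosome 11 and Psmb7 on chromosome 2. Their promoter windows, from RefSeq on GRCm38.p6 and running from 250 bases before to 50 after the start, are shown for the pair Psmb8 and Psmb5, for Psmb9, and for Psme1, whose product caps the same particle. Windows were found for 37 of the 43 genes. Capitals mark matches, on either strand, of GAAANNGAA (interferon-type), TGACTCA or CCAAT.
Psmb8, chr17:34197945-34198244, plus strand: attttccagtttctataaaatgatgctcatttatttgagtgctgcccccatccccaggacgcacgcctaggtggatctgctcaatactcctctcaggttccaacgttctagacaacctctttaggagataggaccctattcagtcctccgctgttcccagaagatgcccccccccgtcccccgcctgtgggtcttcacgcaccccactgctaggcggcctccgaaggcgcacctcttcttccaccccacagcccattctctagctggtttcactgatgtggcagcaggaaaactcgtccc
Psmb9, chr17:34187281-34187580, minus strand: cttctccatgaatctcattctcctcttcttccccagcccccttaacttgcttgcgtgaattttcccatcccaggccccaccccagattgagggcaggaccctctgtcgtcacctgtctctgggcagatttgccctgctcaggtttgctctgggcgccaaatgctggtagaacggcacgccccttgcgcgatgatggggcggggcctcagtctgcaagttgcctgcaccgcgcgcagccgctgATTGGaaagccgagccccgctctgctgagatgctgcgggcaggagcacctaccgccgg
Psmb5, chr14:54617946-54618245, minus strand: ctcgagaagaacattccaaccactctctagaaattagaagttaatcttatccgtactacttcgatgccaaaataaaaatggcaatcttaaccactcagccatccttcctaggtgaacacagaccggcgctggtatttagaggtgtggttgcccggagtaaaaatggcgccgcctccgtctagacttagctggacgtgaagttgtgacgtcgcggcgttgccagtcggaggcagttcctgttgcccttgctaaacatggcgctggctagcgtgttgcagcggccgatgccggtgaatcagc
Psme1, chr14:55578244-55578543, plus strand: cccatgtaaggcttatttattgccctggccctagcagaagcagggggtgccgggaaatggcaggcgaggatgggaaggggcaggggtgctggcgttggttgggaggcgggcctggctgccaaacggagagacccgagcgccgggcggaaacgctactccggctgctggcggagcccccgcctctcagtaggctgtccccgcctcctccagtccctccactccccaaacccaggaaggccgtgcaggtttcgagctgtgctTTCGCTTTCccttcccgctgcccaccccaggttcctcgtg
GAAANNGAA was found in 6 of the 37 genes (16.2%), against 9.76% of all genes with a window. The 3 immunoproteasome genes had 0 matches of it in these windows, and Psme1 had 1. TGACTCA occurred in 1 of the 37 genes, Psmd9 (2.70%, against 5.95% of all genes), and CCAAT in 12 of 37 (32.4%, against 41.1%), Psmb9 among them. Matches of 2 different motifs overlapped 0 times in these genes' windows. A match describes letters, and no match says only that these letters are not in this window.

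Psmb8 was 12.55 at the lowest, 13.04 at the median and 13.86 at the highest in T-ALL, and 12.58, 12.79 and 13.21 in T-ALL Rag-, against 13.28, 13.60, 12.55 and 13.55 in grafts 1 to 4. It was 13.30 and 13.29 in host spleen, 12.22 and 12.53 in wild-type thymus, and 10.58 and 12.51 in wild-type spleen 1 and 3. One array, wild-type spleen 1, lay far below every other, of which the lowest was wild-type thymus 1 at 12.22. Psmb5, the constitutive counterpart, was 9.62 at the lowest, 10.04 at the median and 10.91 at the highest in T-ALL, and 9.70, 9.77 and 10.97 in T-ALL Rag-, against 8.93, 9.88, 9.76 and 9.22 in grafts. Host spleen was high for Psmb5 at 10.69 and 10.85, beside 9.79 and 9.90 in wild-type thymus and 9.68 and 9.88 in wild-type spleen.

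Psmb9 was 10.06 at the lowest, 11.33 at the median and 11.79 at the highest in T-ALL, and 10.78, 10.44 and 11.76 in T-ALL Rag-, against 10.47, 11.63, 10.88 and 10.31 in grafts 1 to 4. It was 11.52 and 11.74 in host spleen, 10.98 and 11.16 in wild-type thymus and 10.28 and 10.05 in wild-type spleen. The leukaemia and graft ranges overlapped. Its counterpart Psmb6 was 12.41 to 13.27 in T-ALL (median 12.91), 12.64 to 12.87 in T-ALL Rag- and 12.41 to 12.82 in grafts, and 12.22 to 12.53 on the 6 host and wild-type arrays.

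Psmb10 was 10.78 at the lowest, 11.80 at the median and 12.19 at the highest in T-ALL, and 12.22, 11.52 and 11.92 in T-ALL Rag-, against 11.02, 11.98, 11.48 and 11.23 in grafts. It was 10.83 and 11.17 in host spleen, 11.81 and 11.41 in wild-type thymus, and 10.80 and 10.83 in wild-type spleen. A second Psmb10 probe gave 11.16 and 11.57 in host spleen, against 10.42, 11.76, 11.39 and 10.77 in grafts, so the probes differed in sign for host spleen against grafts (-0.43 and 0.28). Psmb7, the trypsin-like counterpart, was 12.96 to 13.36 in T-ALL (median 13.17), 12.86 to 13.35 in T-ALL Rag-, 12.85 to 13.04 in grafts, 12.86 to 13.13 in host spleen, 12.94 to 13.03 in wild-type thymus and 12.49 to 13.28 in wild-type spleen.

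**Figure D3:**
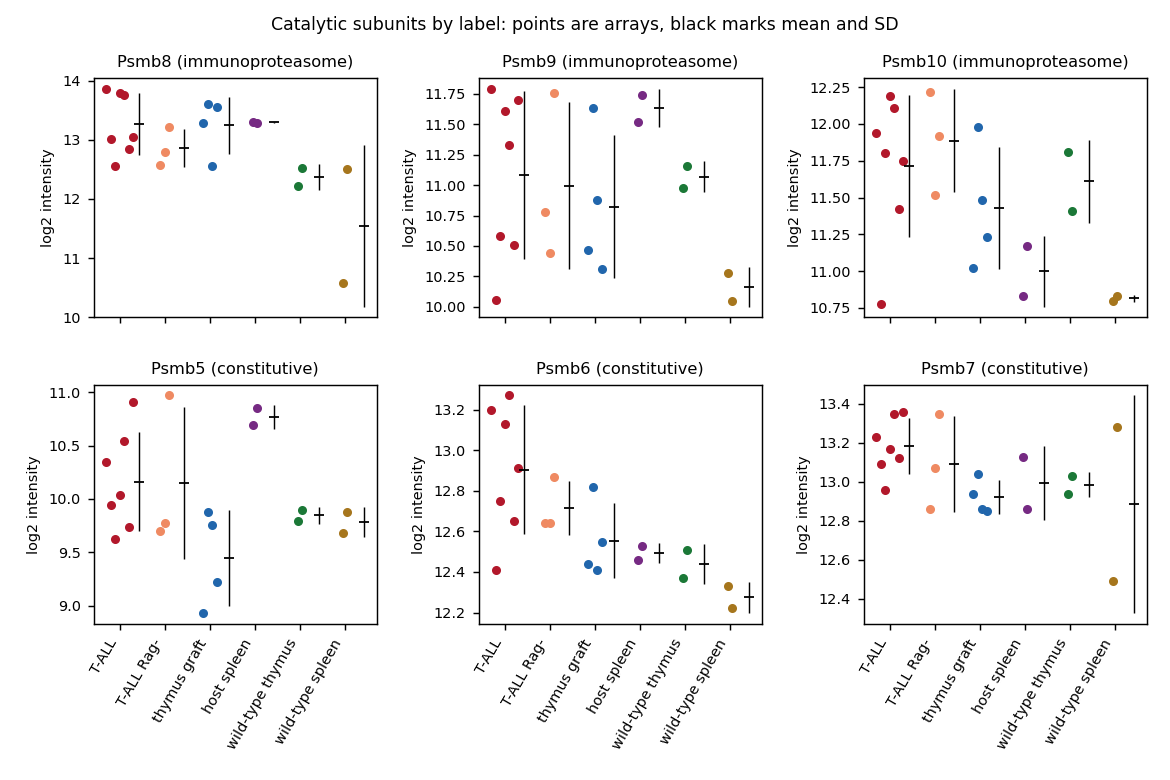
Log2 intensity of the 3 immunoproteasome genes (top) and their constitutive counterparts (bottom) by label, with 1 point per array and the mean with its SD in black. Psmb9 and Psmb5 are high in both host spleen arrays, and the lowest Psmb8 point is wild-type spleen 1 at 10.58.

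Because probes differ in brightness, only the shift of an immunoproteasome gene relative to its counterpart between labels can be read. Psmb8 minus Psmb5 was 2.13 to 3.75 in T-ALL, 2.24 to 3.02 in T-ALL Rag-, and 2.79 to 4.35 in grafts, a mean shift of -0.70 for T-ALL and -1.08 for T-ALL Rag- against grafts, with overlapping arrays. Psmb5 differed by 0.72 and 0.70 in these comparisons, and Psmb8 by 0.02 and -0.38. Psmb9 minus Psmb6 shifted by -0.09 and Psmb10 minus Psmb7 by 0.02 in T-ALL against grafts. Pairs without overlap occurred in other comparisons. Psmb8 minus Psmb5 was 2.79 to 4.35 in grafts, against 2.43 to 2.63 in wild-type thymus (shift 1.27), and 2.44 to 2.61 in host spleen, below all grafts (shift -1.27). These values use the brightest Psmb8 probe. For grafts against wild-type thymus it gave a Psmb8 difference of 0.87, and a second probe, with overlapping arrays, gave 0.32. Psmb9 minus Psmb6 was -0.94 and -0.79 in host spleen, above wild-type spleen at -2.05 and -2.17 (shift 1.24) and above the grafts at -2.24 to -1.19 (shift 0.87). In wild-type thymus against wild-type spleen Psmb9 minus Psmb6 shifted by 0.74 and Psmb10 minus Psmb7 by 0.70, also without overlap. The class I antigen processing list (11 of 13 genes measured, among them B2m and Pdia3) and the interferon response list (18 of 21, among them Irgm1 and Irf1) had 0 genes past the test in T-ALL against grafts, with medians of -0.13 and -0.09.

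Psmb1, a non-catalytic subunit of the beta ring, varied most of all. It was 12.78, 10.09, 10.26, 12.78, 12.97, 9.46 and 11.67 on T-ALL arrays 1 to 7, and 10.79, 10.61 and 10.45 in T-ALL Rag-. Grafts 1 to 4 had 12.31, 11.00, 10.18 and 12.48, host spleen 12.82 and 12.53, wild-type thymus 8.76 and 10.58, and wild-type spleen 9.30 and 10.62. High and low arrays occurred within T-ALL and within grafts, so no label had its own level. The erythroid mean beside it was 9.31, 12.31, 12.46, 9.37, 9.29, 12.91 and 11.58 on T-ALL arrays 1 to 7. It was 12.20, 12.40 and 12.19 on the T-ALL Rag- arrays.

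The arrays fell into separate clusters by erythroid level. It was below 9.5 on T-ALL arrays 1, 4 and 5, grafts 1 and 4 and both host spleen arrays, where Psmb1 was 12.31 to 12.97. It was above 11 on the remaining arrays, where Psmb1 was 8.76 to 11.67. Psme3 lay the other way round, at 11.21 to 11.67 on the arrays below 9.5 and at 11.75 to 12.92 on the rest. Psmb8 was 13.28 to 13.86 on the arrays below 9.5 and 10.58 to 13.60 on the rest. Of the rest, only graft 2, at 13.60, reached the first range. No correlation is given across such clusters, and the part of erythroid cells in either gene was not tested. Psmb1 differed by -0.06 in T-ALL (SE 0.67, limma adjusted p = 0.981) and by -0.88 in T-ALL Rag- (SE 0.82, limma adjusted p = 0.638) against grafts.

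**Figure D4:**
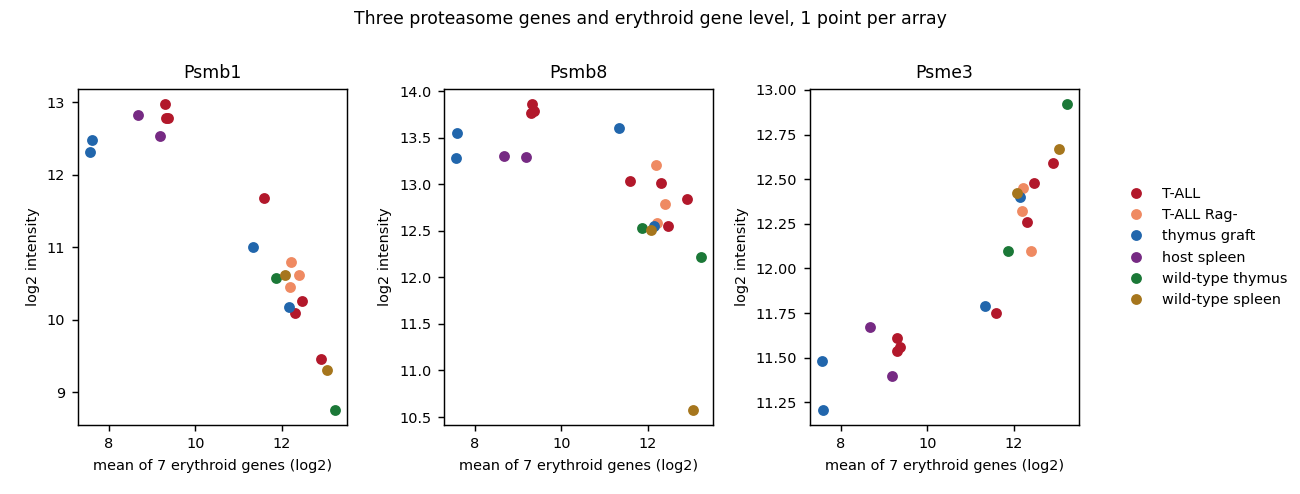
Log2 intensity of Psmb1, Psmb8 and Psme3 on each array against the mean of 7 erythroid genes on that array, coloured by label. Arrays with an erythroid mean below 9.5 all have Psmb1 above 12, and the remaining ones have Psmb1 below 12.

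Among the activators, 0 of 5 passed the test in any of the 7 comparisons. Psme1, which joins Psme2 in the interferon-inducible cap, was 12.37 to 13.08 in T-ALL (median 12.84), and 12.67, 12.54 and 12.96 in T-ALL Rag-, against 12.45, 13.11, 12.78 and 12.41 in grafts, a log2 difference of 0.02 for T-ALL. Its levels were 12.56 and 12.45 in host spleen, 12.60 and 12.47 in wild-type thymus and 12.05 and 12.16 in wild-type spleen. Psme2b, a close copy of Psme2 whose probe may share signal with it, is uncertain and was 8.29 to 9.67 in T-ALL and 8.29 to 9.49 in grafts.

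Psme3, the nuclear cap, was 11.54 at the lowest, 11.75 at the median and 12.59 at the highest in T-ALL, and 12.45, 12.10 and 12.32 in T-ALL Rag-, against 11.48, 11.79, 12.40 and 11.21 in grafts 1 to 4. It was 11.67 and 11.40 in host spleen, 12.92 and 12.10 in wild-type thymus and 12.67 and 12.42 in wild-type spleen. The highest values were on wild-type arrays 1 of both tissues, and the host arrays lay below all wild-type ones. Psme4, the large nuclear cap, was 9.93 to 11.28 in T-ALL, 10.04 to 11.22 in T-ALL Rag- and 10.54 to 11.37 in grafts.

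Grafts against wild-type thymus showed no proteasome gene past the test. Of 43 genes 13 were higher in the grafts, with a median log2 difference of -0.105, and 0 were past an adjusted p of 0.05 in limma, against 0.0787% of all genes, with 0 higher and 5 lower before adjustment, the second against 10.2% of all genes. Psmb1 differed by 1.82 (SE 0.93, limma adjusted p = 0.278), Psmb8 by 0.87 (SE 0.45, adjusted p = 0.290) and Psme3 by -0.79 (SE 0.35, adjusted p = 0.216). All 4 grafts lay above both thymus arrays for Psmb8, one of 9 of the 43 members without overlap, against 18.7% of all genes. On a second Psmb8 probe they overlapped, at 9.45 to 10.49 in grafts and 9.72 and 9.57 in wild-type thymus (difference 0.32). Psmd8, a lid subunit, was 10.61, 11.07, 10.75 and 10.77 in grafts 1 to 4, against 11.34 and 11.82 in wild-type thymus (difference -0.78, SE 0.28, limma adjusted p = 0.152).

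Without wild-type thymus 1, whose markers go against its label, the differences were 0.912 for Psmb1, 0.715 for Psmb8 and -0.38 for Psme3. Without graft 3, Psmd1 passed (-0.71, adjusted p = 0.0367), 1 of 43, against 8.69% of all genes. All wild-type and host arrays sit on a chip of their own, so chip and group cannot be told apart here, nor in host spleen against grafts, and strain differs too. The 14 cell cycle genes were lower in the grafts for 14 of 14 (median -0.47), granulocyte markers for 11 of 11 (median -3.79), and T cell markers higher for 7 of 7 (median 2.14). Their part in the proteasome values was not tested.

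Host spleen against wild-type spleen gave the only proteasome genes past the test. The lid subunit Psmd11 (chr11:80428615-80473248) was 9.68 and 9.42 in host spleen, against 8.59 and 8.74 in wild-type spleen, and rose by 0.88 (SE 0.22, limma adjusted p = 0.0380). The lid subunit Psmd13 (chr7:140882394-140898642) was 12.20 and 12.28 in host spleen, against 13.03 and 13.00 in wild-type spleen, and fell by 0.77 (SE 0.17, limma adjusted p = 0.0296). Host and wild-type arrays did not overlap for either gene, nor for 29 of 43 members in all, against 54.8% of all genes. A second Psmd11 probe gave a smaller difference of 0.30, in the same direction. These are 2 of 43, against 2.98% of all genes, and 19 of 43 were higher in host spleen with a median of -0.055. Both labels share 1 chip, and the strain differs between them.

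Other members with large differences did not pass. Psmb1 differed by 2.72 (SE 1.07, limma adjusted p = 0.146), Psmb8 by 1.75 (SE 0.52, limma adjusted p = 0.0737) and Psmb9 by 1.46 (SE 0.55, limma adjusted p = 0.132). The 3 immunoproteasome genes were higher in host spleen, 0 of them past the test. Psmg2 was 9.61 and 9.70 in host spleen, against 10.30 and 11.07 in wild-type spleen, although another of its 3 probes gave a difference of 0.33. Without wild-type spleen 3, Psmb8 passed too (2.72, adjusted p = 0.0045), which made 3 of 43, against 12.1% of all genes, and without wild-type spleen 1 its difference was 0.785. Leaving out wild-type spleen 1 or either host array left 0 calls.

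The cell type markers moved with this comparison. Granulocyte markers were lower in host spleen for 11 of 11 genes, 3 of them past the test: Camp (7.06 ± 0.01 in host spleen and 13.32 ± 1.58 in wild-type spleen), Ltf (6.94 ± 0.13 and 13.86 ± 1.79) and Retnlg (7.00 ± 0.06 and 12.04 ± 1.89, SD, n = 2 each), with host spleen below the limit of 7.11. Double-positive markers were higher for 8 of 8, with Themis past the test (10.80 ± 0.26 in host spleen and 8.03 ± 1.46 in wild-type spleen, SD, n = 2 each). Erythroid markers were lower for 7 of 7 (median -3.40), macrophage markers lower for 12 of 12 (median -2.54) and T cell markers higher for 7 of 7 (median 1.36), with 0 of these past the test. B cell markers were lower for 6 of 7 (median -0.31). Psmb1 and Psme3, which split by erythroid level above, are among the members these shifts accompany, and the part of the markers in the proteasome values was not tested.

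Host spleen against grafts had 20 of 43 genes higher, a median of -0.060 and 0 past an adjusted p of 0.05 in limma, against 0.315% of all genes. Before adjustment 7 were higher and 4 lower, against 601 and 397 of all 12704 genes. Psmb5 differed by 1.32 (SE 0.38, limma adjusted p = 0.215) and Psmd8 by 1.20 (SE 0.28, limma adjusted p = 0.0915). Psmd8 was 11.82 and 12.17 in host spleen, above all 4 grafts, one of 15 of the 43 members without overlap, against 23.4% of all genes. Psmb1 differed by 1.18 (SE 0.93, limma adjusted p = 0.895). Among the proteasome partners, Ufd1, which helps the unfoldase Vcp extract ubiquitinated proteins, passed the test with a fall of 0.94 in host spleen (8.02 ± 0.11, n = 2) against grafts (8.96 ± 0.20, SD, n = 4; limma adjusted p = 0.0475).

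Wild-type thymus against wild-type spleen had 24 of 43 higher, a median of 0.065 and 0 past an adjusted p of 0.05 in limma, against 0% of all genes. Before adjustment 0 were higher and 0 lower, against 312 and 351 of all 12704 genes. The 3 largest differences were the immunoproteasome genes: 0.90 for Psmb9 (SE 0.55, limma adjusted p = 0.989), 0.83 for Psmb8 (SE 0.52, limma adjusted p = 0.997) and 0.80 for Psmb10 (SE 0.39, limma adjusted p = 0.947). Psmb9 and Psmb10 did not overlap between the labels, nor did 14 of the 43 members in all, against 21.6% of all genes. Psmb8 rested on wild-type spleen 1, without which its difference was -0.135, and without wild-type spleen 3 it was 1.795.

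The proteasome partners (13 of 20 genes measured) had 9 of 13 higher in T-ALL than in grafts (median 0.15) and 10 of 13 in T-ALL Rag- (median 0.31), with 0 past the test. Its 2 brightest genes were Pomp, the maturation factor of the core particle (13.42 ± 0.18 in T-ALL, n = 7, and 13.24 ± 0.18 in grafts, SD, n = 4), and Vcp (13.07 ± 0.20 and 12.89 ± 0.07 in the same groups). Neither difference, 0.18 for both genes, passed the test. Among the cell cycle genes, Mcm5 differed by 0.59 and Mcm4 by 0.26 in T-ALL against grafts (limma adjusted p = 0.186 and 0.671). The 2 brightest genes of the other marker lists, as differences in T-ALL against grafts, were 2.61 for Hbb-b1 and 2.48 for Hba-a1 (erythroid), 1.46 for Lyz1 and 1.90 for Vcam1 (macrophage), -0.23 for Cd3d and -0.54 for Cd3g (T cell), -1.11 for Ighm and -0.20 for Igkc (B cell), 0.00 for Prf1 and 0.54 for Nkg7 (natural killer), and 0.24 for Krt8 and 0.19 for Prss16 (thymic epithelium), none past the test. In the same comparison B cell markers were higher for 3 of 7 genes and natural killer markers for 2 of 3. Psmb11 itself was 6.90 to 7.24 across the 20 arrays, above the limit on 6 of them, and the thymic epithelium markers averaged 6.97 to 7.44.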

How the data were processed

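Per the labels' protocols, RNA was extracted with RNAzol B, and biotinylated cRNA came from an Ambion MessageAmp kit. The authors deposited log2 intensities for 46089 probes on 20 arrays. The sources used here do not state the normalization, the background step or the log base. The sorted values differ by at most 0.01 between arrays and every array has a median of 6.95, as after quantile normalization, and base 2 is assumed. A second deposited table of 20 value columns whose names match no label was not used.

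Symbols were updated through RefSeq (GRCm38.p6). The brightest probe stood for a gene, and 12704 genes above 7.11 on 2 or more arrays entered 1 limma fit (version 3.58.1, R 4.3.3, lmFit and eBayes with an intensity trend, 6 groups, 14 residual degrees of freedom), with Benjamini-Hochberg adjustment over all genes within each comparison at 0.05. Figures were drawn in Python 3.11.15 with matplotlib 3.10.9. The test was tried on simulated data first. The number of arrays per group limits the precision. More than 1 probe was above the limit for 19 members, and all probes had the same sign in 15 of these for T-ALL against grafts and in 10 to 15 over the 7 comparisons.

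The genes and lists were chosen with earlier results of these data known, so no count over them is independent support. Every member is named. Values by array are given for the catalytic pairs, Psme1, Psme2, Psme3, members past 0.05 and the 3 largest differences of each comparison, and each other list gives members past 0.05 or its 2 brightest genes. Alternatives covered background, filter, probe choice, arrays in the fit, each array left out, chip and a replicate block.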

Additional observations from a re-analysis of the deposited data

Results flagged for a closer look

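The 7 T-ALL arrays and the 4 grafts were searched for single arrays far from the rest, gene by gene, in 86 groups, and chance alone flags about 1 in 20 groups. The 2 values that stood apart were both on T-ALL array 2. Psmd4 was 12.58 there, with the nearest other T-ALL array at 12.95. Psmg3 was 9.81 there, with the nearest other T-ALL array at 10.27.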

How the results depend on the processing

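The median log2 difference of the proteasome genes, the number of genes higher and the 21 pair shifts moved by less than the spread between replicates, or within 1.5 times, under every alternative run, but some signs turned. Part of this was fixed in advance. Where both groups have 2 arrays, leaving out 1 cannot move a pair shift by more than this spread. Fitting only the compared groups leaves every difference as it was. Leaving out 1 array gave medians of both signs in 4 of 7 comparisons: -0.22 to 0.06 in host spleen against wild-type spleen (15 to 24 higher), -0.1 to 0.165 in wild-type thymus against wild-type spleen (17 to 36 higher), -0.098 to 0.02 in host spleen against grafts and -0.099 to 0.035 in T-ALL Rag- against T-ALL. It was -0.195 to -0.048 in grafts against wild-type thymus, 0.215 to 0.321 in T-ALL and 0.17 to 0.317 in T-ALL Rag- against grafts. For the pair shifts, where leaving out arrays was chosen after seeing the data, 9 of 21 took both signs, among them Psmb8 minus Psmb5 in host spleen (-0.105 to 1.625) and wild-type thymus (-0.1 to 1.63) against wild-type spleen. Calls of proteasome genes past 0.05 moved in 3 of 44 alternatives other than leaving out 1 array, some of which used only part of the arrays. T-ALL Rag- against grafts had 5 with chip as a random block (0 otherwise). Host spleen against wild-type spleen had 1 with no intensity filter, where Psmd11 had a limma adjusted p of 0.0639, and 0 with only the compared groups. Leaving out 1 array gave 0 to 3 calls in T-ALL against grafts, 0 to 6 in T-ALL Rag- against grafts, 0 to 1 in grafts against wild-type thymus and 0 to 3 in host spleen against wild-type spleen. Psmb8 in wild-type thymus against wild-type spleen ranged from -0.135 to 1.795, reversed without wild-type spleen 1. Calls over all genes are given with their range over the alternatives other than leaving out 1 array. They were 41 for T-ALL against grafts (0 to 224), 0 for T-ALL Rag- against T-ALL (0 to 21) and 2 for T-ALL Rag- against grafts (0 to 605). With 1 array left out these 3 comparisons had 2 to 1109, 0 to 1 and 1 to 1123. Grafts against wild-type thymus had 10 (2 to 10) and host spleen against wild-type spleen 378 (7 to 406). Host spleen against grafts had 40 (0 to 48) and wild-type thymus against wild-type spleen 0 (0 throughout). The cause was not tested.

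Wild-type thymus and spleen share numbers 1 and 3, but no label says what they mark. Their deviations correlated (r = 0.68, 2 pairs only). With the number as a replicate block 0 genes passed. Each number occurs once per tissue, so this block cannot change a difference. The 24 genes higher and the median of 0.065 are therefore those of the main fit. Values before normalization were not run because their columns match no label. Arrays of 2 per group, and Psmc6 near background, limit what can be seen.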
